A study of Mus musculus with 5 samples.

Results

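The genes described here build and regulate the machinery that copies DNA in S phase. The set was defined by name as 46 genes of the replicative helicase and origins, the sliding clamp and its loader, the polymerases and primase, nucleotide supply, chromatin assembly, and single-strand binding, ligation and repair, with the S-phase cyclin Ccne2 added. The 17328 spots of the array included 34 spots with one of these symbols as their only gene name, for 28 of the 46 genes. Of these, 25 spots for 22 genes were measured on at least 4 of the 5 arrays and were tested, among 10036 spots tested in all.

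Each of the 5 dual-colour spotted arrays compared total RNA of mutant mice (Rb-) in channel 2 with total RNA of wild-type mice in channel 1. The series title names retinal explants, which are pieces of retina kept in organ culture. The sources used here name neither the allele nor the age of the mice nor any pooling. They do not say whether each array had its own animal or culture, so p-values reflect array-to-array spread, which could be purely technical. All values are deposited log2 ratios, centred on each array's median, and a log2 ratio of 1 is a 2-fold difference between the channels. Which RNA carried which dye, and whether the deposited ratio has the mutant on top, is not stated. The sign of every value is therefore the deposited one, and no direction is assigned to the mutant.

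Replication origins are licensed in G1 when ORC, Cdc6 and Cdt1 load the ring-shaped MCM helicase onto DNA. In S phase the helicase is activated with Cdc45, and polymerases held by the clamp Pcna copy both strands while histones and DNA methylation are restored behind the fork. Many of these genes carry E2F sites, and Rb, the retinoblastoma protein, binds E2F factors and represses their targets until cells commit to S phase. In the retina, replication genes are expressed by dividing progenitors and are shut down as neurons are born.

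The arrays gave 12444 to 13145 usable ratios. The deposited medians ran from -0.755 to -0.025, and the scaled median absolute deviation of the tested spots from 0.627 on array 2 to 1.14 on array 1. Sizes on the log2 scale are thus not directly comparable between arrays. Rb1, the targeted gene, lay within 0.24 of 0 on all 5 arrays by the spot measured on all of them. That spot had a mean of -0.03 ± 0.16 (SD, n = 5; exact two-sided sign-flip permutation p = 0.688), which does not check the labels, since what the allele does to the RNA is not known. The other tested Rb1 spot gave 0.95, 2.06, -1.33 and 1.72 on arrays 1, 2, 3 and 5, with a mean of 0.85 ± 1.52 (SD, n = 4; exact two-sided sign-flip permutation p = 0.375). The 2 spots thus disagreed, and which of them detects Rb1 was not tested. Ratios hold no level of either RNA, so the labelled tissue could not be checked by marker levels. Of 30 listed rod genes, 21 had usable ratios on enough arrays to be measured, which does not show how much rod RNA was present.

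Replication genes lay well above all genes on arrays 1 and 3, moderately above on array 4, and level with all genes on arrays 2 and 5. Over the 22 measured members the median stood 1.66, -0.04, 1.83, 0.54 and 0.02 log2 units from the median of all 4625 genes, in the order of arrays 1 to 5. The mean of these 5 differences was 0.80 ± 0.89 (SD, n = 5), so the spread between arrays was as large as the difference itself. With RNA from whole tissue, fewer cells of a type and less RNA per cell cannot be told apart. All genes themselves had medians of -0.35, -0.01, -0.35, 0.08 and -0.22. Arrays 1, 2 and 3 were scanned at focus position 10 and gave a mean difference of 1.11 ± 1.01 (SD, n = 3). Arrays 4 and 5, scanned at focus position 0, gave 0.32 ± 0.27 (SD, n = 2). Without arrays 1 and 3, left out after their values were seen, the mean difference was 0.22.

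On the arrays where the members were high, most of them were high together. On array 1, 20 of 21 members lay above the upper quartile of all genes, on array 3, 20 of 22, and on array 4, 13 of 20. On array 2 this held for 6 of 22 and on array 5 for 5 of 21. Log2 ratios above 1 were found for 14 of 21 members on array 1, against 11.1% of all genes, and for 17 of 22 on array 3, against 10.6%. On array 4 they were found for 5 of 20, against 9.03%. Arrays 2 and 5 gave 2 of 22 and 2 of 21, against 6.20% and 8.27%, shares near those of all genes.

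**Figure D1:**
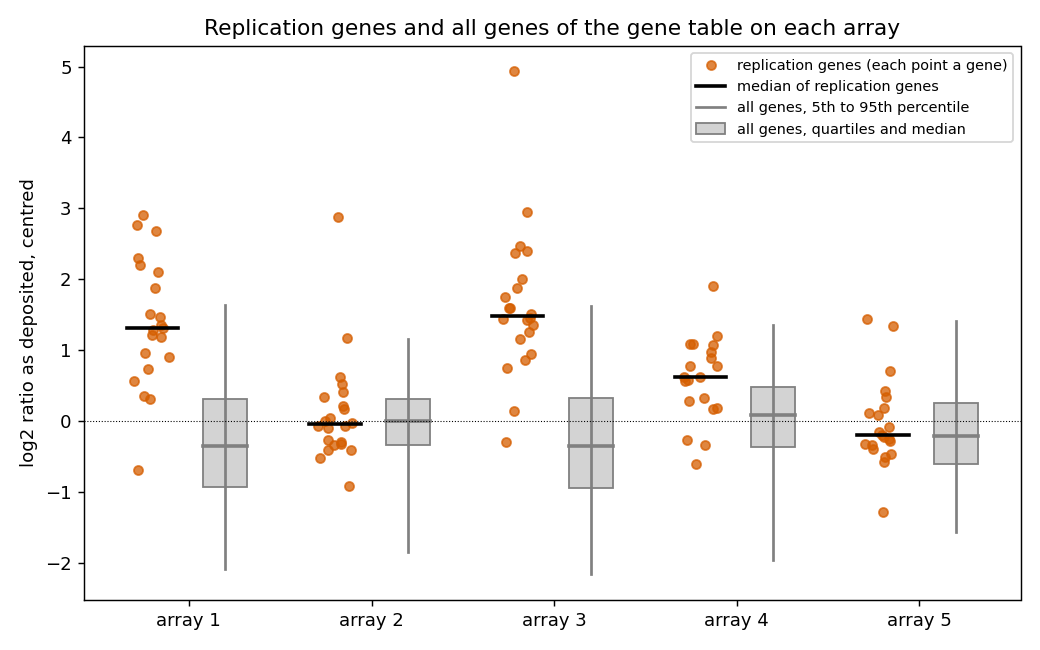
Centred log2 ratios (y axis, as deposited) on each of the 5 arrays (x axis). Orange points are the measured replication genes with their median as a black bar. Grey boxes give the quartiles and median of all 4625 genes, and grey lines their 5th to 95th percentile. The member medians stand 1.66 and 1.83 above those of all genes on arrays 1 and 3, and within 0.05 of them on arrays 2 and 5.

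A rank within the array does not depend on its spread, and again set arrays 1, 3 and 4 apart from arrays 2 and 5. By median rank array 4 stood close to arrays 1 and 3, unlike on the log2 scale. The median replication spot stood at percentile 86.2, 49.5, 89.6, 80.3 and 47.3 among the tested spots of arrays 1 to 5. The top 10% of the array held 8 of 24 member spots on array 1 and 12 of 25 on array 3. It held 2 of 23 on array 4, 2 of 25 on array 2 and 1 of 23 on array 5. On array 4 the members were thus shifted upwards with few at the extreme.

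**Figure D2:**
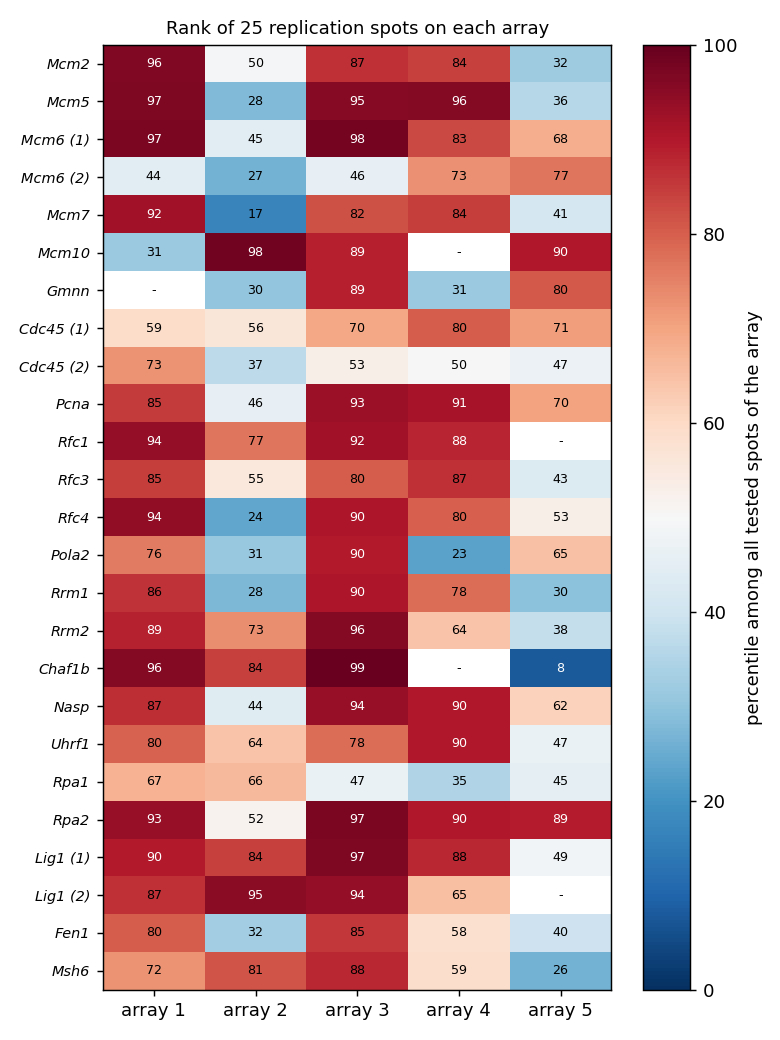
Percentile (colour and printed number) of each of the 25 tested replication spots (rows, 2 rows where a gene has 2 tested spots) among all tested spots of each of the 5 arrays (columns). A dash marks a spot without a usable ratio. Columns 1, 3 and 4 are mostly red, and columns 2 and 5 mix red and blue around median percentiles of 49.5 and 47.3.

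No member passed the test across all genes. In limma with Benjamini-Hochberg adjustment over 4625 genes, 0 of 22 members and 0.00% of all genes had an adjusted p under 0.05, and the smallest adjusted p among members was 0.412. Unadjusted limma p-values under 0.05 with a positive mean were found for 5 of 22 members, Rpa2, Rfc1, Lig1, Pcna and Nasp, against 3.76% of all genes. On the negative side there were 0 of 22, against 8.00%. The positive count was 3 of 23 without array 3, against 2.95% of all genes, and 3 of 22 without array 4, against 3.38%. Without array 5 it was 9 of 22, against 3.92%. Without arrays 1 and 3 it was 1 of 26, against 3.86%, a share near that of all genes. By spot, 6 of 25 had an unadjusted p under 0.05 with a positive mean, against 5.52% of all tested spots, and 0 of 25 with a negative mean, against 5.90%. The positive count by spot was 2 of 28 without array 3, against 5.11% of all tested spots, and 3 of 25 without array 4, against 6.34%. Without arrays 1 and 3 it was 2 of 31, against 4.71%. The mean over arrays was above 0 for 21 of 22 members, against 33.7% of all genes. The median of the members' means was 0.74, against -0.21 for all genes.

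**Figure D3:**
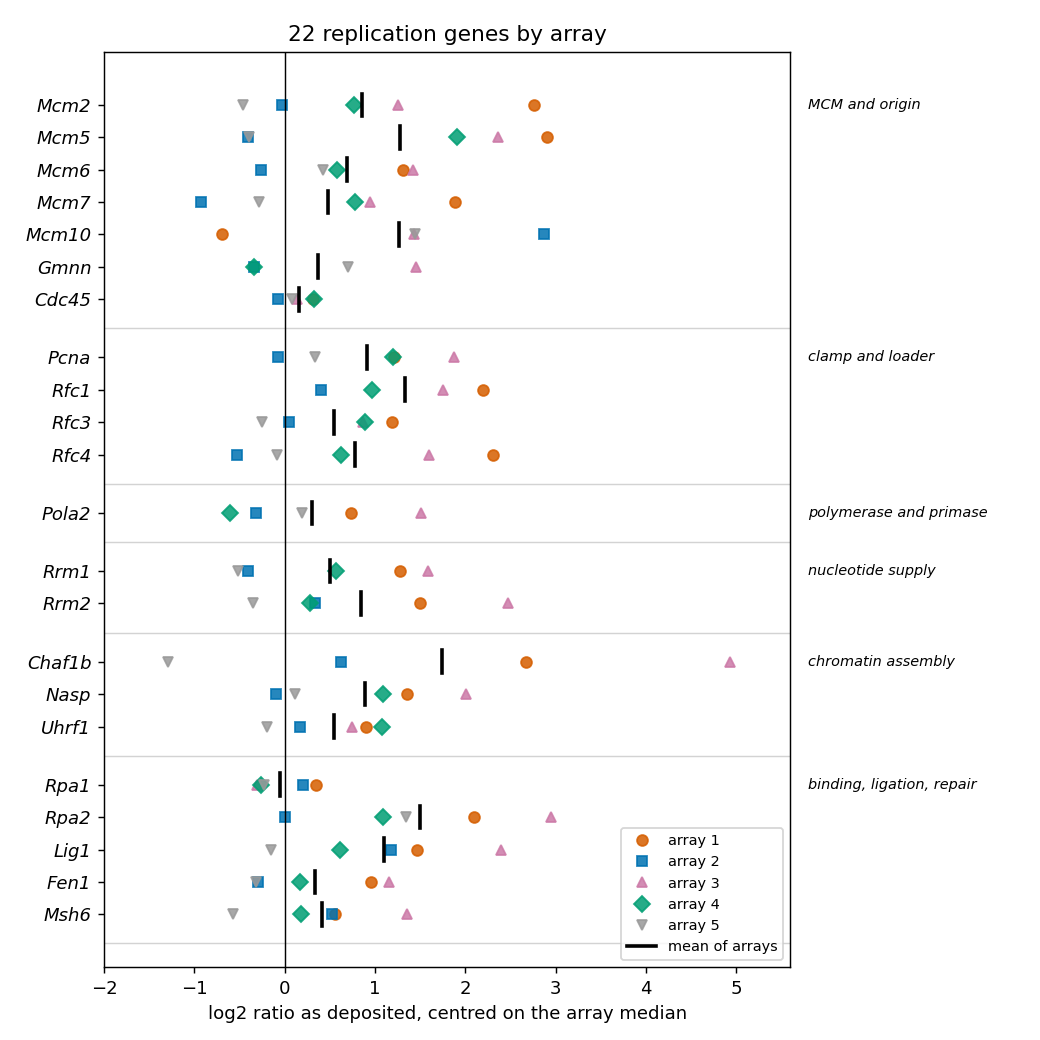
Centred log2 ratio as deposited (x axis) of each of the 22 tested replication genes (rows, grouped by function at the right). Each symbol is an array and each black bar the mean over arrays. For most genes arrays 1 and 3 lie to the right, array 4 between, and arrays 2 and 5 near 0, while Cdc45 and Rpa1 stay near 0 throughout and Mcm10 is highest on array 2.

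Upstream sequence is shown for 6 members, chosen after their values were seen. Mcm5, Mcm6, Mcm7 and Rfc3 hold a canonical E2F motif there, Pcna had high ratios without such a match, and Cdc45 had ratios near 0 without one. The letters searched were TTTCGCGC, TTTGGCGC and TTTCCCGC on both strands, in the 250 bases before each annotated start (RefSeq, GRCm38.p6). Capitals mark a match, and overlapping matches run together. The windows are chr8:75109259-75109508 (+ strand) for Mcm5, chr1:128359706-128359955 (- strand) for Mcm6, chr5:138171884-138172133 (- strand) for Mcm7, chr5:151651209-151651458 (- strand) for Rfc3, chr2:132253181-132253430 (- strand) for Pcna and chr16:18811973-18812222 (- strand) for Cdc45. Each is written 5' to 3' along the gene and ends at the base before the start.
Mcm5: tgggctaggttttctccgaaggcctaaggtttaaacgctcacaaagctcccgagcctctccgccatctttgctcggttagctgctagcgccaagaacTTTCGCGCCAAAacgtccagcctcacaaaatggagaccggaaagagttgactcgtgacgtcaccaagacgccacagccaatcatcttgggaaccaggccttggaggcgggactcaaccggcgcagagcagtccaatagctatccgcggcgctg
Mcm6: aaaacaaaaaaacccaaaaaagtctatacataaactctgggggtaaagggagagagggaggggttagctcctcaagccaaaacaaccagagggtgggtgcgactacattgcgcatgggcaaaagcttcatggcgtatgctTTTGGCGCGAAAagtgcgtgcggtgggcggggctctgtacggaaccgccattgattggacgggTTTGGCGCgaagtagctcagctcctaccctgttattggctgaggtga
Mcm7: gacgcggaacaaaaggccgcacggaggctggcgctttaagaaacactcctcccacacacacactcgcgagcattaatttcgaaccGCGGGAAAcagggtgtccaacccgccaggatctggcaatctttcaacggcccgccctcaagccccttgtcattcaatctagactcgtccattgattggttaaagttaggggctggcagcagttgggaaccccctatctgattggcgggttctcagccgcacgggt
Rfc3: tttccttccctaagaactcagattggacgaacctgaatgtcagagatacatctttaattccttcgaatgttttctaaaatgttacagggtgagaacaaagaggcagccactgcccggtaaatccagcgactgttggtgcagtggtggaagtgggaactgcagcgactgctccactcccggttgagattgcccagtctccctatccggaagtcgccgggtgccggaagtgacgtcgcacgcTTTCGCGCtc
Pcna: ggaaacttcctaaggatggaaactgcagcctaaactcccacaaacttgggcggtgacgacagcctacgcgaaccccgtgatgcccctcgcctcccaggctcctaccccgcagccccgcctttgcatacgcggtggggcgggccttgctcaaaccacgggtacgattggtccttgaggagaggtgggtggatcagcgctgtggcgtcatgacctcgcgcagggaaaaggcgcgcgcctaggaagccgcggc
Cdc45: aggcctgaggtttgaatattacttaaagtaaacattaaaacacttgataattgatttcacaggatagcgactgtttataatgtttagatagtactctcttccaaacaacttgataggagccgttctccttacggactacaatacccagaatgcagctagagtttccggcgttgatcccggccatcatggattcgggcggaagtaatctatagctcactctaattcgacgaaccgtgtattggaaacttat

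In the Mcm5 window a TTTCGCGC begins at -153 and overlaps a TTTGGCGC on the other strand at -149. The Mcm6 window holds the same pair of strings in the reverse order, a TTTGGCGC at -110 overlapping a TTTCGCGC on the other strand at -106, and a further TTTGGCGC at -47. Mcm7 holds a TTTCCCGC on the other strand from -165, and Rfc3 a TTTCGCGC from -10, directly before the start. Among the 40 listed replication genes with a window, 10 genes, or 25%, held at least one of these letter strings in any of their windows, against 1.78% of all 27025 genes with a window. The share among the 21 tested members with a window was 23.8%, 5 genes, with Uhrf1 as the remaining one. The mean log2 ratios of the 5 were 1.27 for Mcm5, 0.69 for Mcm6, 0.48 for Mcm7, 0.55 for Rfc3 and 0.54 for Uhrf1. They lay inside the range of the other tested members, which ran from -0.05 for Rpa1 to 1.74 for Chaf1b. A missing match says only that these letters are not in the window.

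The helicase and origin genes, 7 measured of 14 listed, all had positive means, from 0.16 for Cdc45 to 1.27 for Mcm5. Relative to all genes, their median stood at 1.95, -0.26, 1.77, 0.59 and 0.30 across arrays 1 to 5. Mcm2, a subunit of the helicase ring, gave log2 ratios of 2.76, -0.03, 1.26, 0.77 and -0.46 across arrays 1 to 5. Mcm5, another ring subunit, had 2.90, -0.41, 2.36, 1.91 and -0.40, and its value on array 4 was the highest of any member there. Mcm7, also of the ring, had 1.88, -0.92, 0.95, 0.78 and -0.29. These 3 genes shared the order of arrays, with array 1 highest, then 3, then 4, and both of arrays 2 and 5 below 0. Their adjusted limma p-values were 0.441 for Mcm2, 0.412 for Mcm5 and 0.593 for Mcm7, so none passed after adjustment. Before adjustment the limma p-values were 0.112, 0.062 and 0.297.

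Mcm6, a further subunit of the ring, was measured by a pair of spots that agreed on arrays 2, 4 and 5 and parted on arrays 1 and 3. The first spot gave 3.16 on array 3 and 2.98 on array 1, where the second gave -0.32 and -0.36. On arrays 2, 4 and 5 the 2 spots lay within 0.36 of each other. Averaged, Mcm6 had a mean of 0.69 ± 0.69 (SD, n = 5; limma adjusted p = 0.412), and the second spot alone had a mean of -0.03. The remaining ring subunits could not be tested. Mcm3 gave 0.58, 0.25 and 0.19 on arrays 2, 4 and 5, and Mcm4 gave 3.36 on array 5 alone. Both were empty on arrays 1 and 3, where the measured subunits were highest.

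Mcm10, a factor of helicase activation, departed from the order of arrays seen for the ring. Its tested spot had -0.69, 2.87, 1.44 and 1.44 on arrays 1, 2, 3 and 5, the lowest member value on array 1 and the highest on array 2. The other Mcm10 spot, measured only on arrays 1 and 5, gave 3.55 and -2.96, the opposite sign on both. The mean of Mcm10 thus rests on a spot that the other spot contradicts. Gmnn, which encodes geminin, the inhibitor of Cdt1 that prevents a second round of licensing, had -0.34, 1.45, -0.34 and 0.70 on arrays 2 to 5. It was high on array 3 and below 0 on array 4, unlike the ring subunits.

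Cdc45, which joins the MCM ring to form the active helicase, stayed close to 0. The mean of its 2 spots was 0.32, -0.08, 0.14, 0.33 and 0.09 on arrays 1 to 5, with a mean of 0.16 ± 0.17 (SD, n = 5; limma adjusted p = 0.71). One of these spots was positive on every array, between 0.06 and 0.63, and the other ran from -0.21 to 0.56. Orc6, the only origin recognition subunit of the 46 listed genes with a spot, was measured on arrays 4 and 5 alone, at 0.06 and 0.31. Orc1, Orc2, Cdc6 and Cdt1, which load the helicase, had no spot with their name alone.

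The clamp and its loader had 4 of 6 genes measured, and all 4 means were positive, between 0.55 and 1.33. Relative to all genes, their median stood at 2.06, -0.01, 2.02, 0.85 and 0.14 across arrays 1 to 5. Pcna, the clamp that tethers polymerase to DNA, reached 1.88 on array 3, 1.21 on array 1 and 1.20 on array 4, and had 0.34 on array 5 and -0.07 on array 2. Its mean was 0.91 ± 0.78 (SD, n = 5; limma adjusted p = 0.412; exact two-sided sign-flip permutation p = 0.125). Rfc1, the large subunit of the loader that opens the clamp, had 2.20, 0.40, 1.75 and 0.97 on arrays 1 to 4 and was empty on array 5. It was positive on every array that measured it, with a mean of 1.33 ± 0.80 (SD, n = 4; limma adjusted p = 0.412). With 4 arrays the sign-flip test cannot go below 0.125.

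The small loader subunits followed. Rfc4 had 2.30, -0.53, 1.59, 0.62 and -0.08 on arrays 1 to 5. Rfc3 had 1.19, 0.04, 0.86, 0.88 and -0.25, a narrower range with array 4 level with array 3. Adjusted limma p-values were 0.447 and 0.433. Rfc2 and Rfc5 had no spot.

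Polymerase and primase were nearly unmeasured. Pola2, the regulatory subunit of the polymerase alpha-primase complex that starts each strand, was the only gene tested of 6. It had 0.73, -0.32, 1.51, -0.60 and 0.19 on arrays 1 to 5, positive on arrays 1 and 3 and, unlike the clamp genes, below 0 on array 4. Its mean of 0.30 ± 0.85 (SD, n = 5; limma adjusted p = 0.677) turned to -0.0021 without array 3. Prim2, the large primase subunit, had -0.68, -2.47 and 1.37 on arrays 3, 4 and 5, with a different sign on array 5. Pola1, Pold1, Pole and Prim1 had no spot, so the catalytic subunits of the replicative polymerases were not measured.

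For nucleotide supply, both subunits of ribonucleotide reductase, the enzyme that makes deoxyribonucleotides, were measured. Rrm1, the large subunit, had 1.28, -0.41, 1.59, 0.56 and -0.51 on arrays 1 to 5. Rrm2, the small subunit, whose RNA accumulates in S phase, had 1.504, 0.34, 2.48, 0.28 and -0.35. Both were highest on array 3 and lowest on array 5. Their means were 0.50 ± 0.96 and 0.85 ± 1.13 (SD, n = 5 each; limma adjusted p = 0.539 and 0.424). Dut, which removes dUTP from the nucleotide pool, had 1.51, -0.72 and 0.56 on arrays 3, 4 and 5 and was not tested. Tyms and Tk1, the enzymes of thymidylate synthesis and salvage, had no spot.

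Among chromatin assembly genes, 3 of 7 were tested and all had positive means. Chaf1b, a subunit of the chaperone CAF-1 that deposits histones on new DNA, spanned the widest range of the 22 tested members, with 2.68, 0.62, 4.94 and -1.29 on arrays 1, 2, 3 and 5. It was the highest tested member on array 3 and the lowest on array 5. Its mean of 1.74 ± 2.68 (SD, n = 4; limma adjusted p = 0.454) was the largest of the tested members and lay within its spread. Nasp, a histone chaperone, peaked at 2.003 on array 3, with 1.35 on array 1, 1.09 on array 4, 0.12 on array 5 and -0.10 on array 2. The limma adjusted p of Nasp was 0.412. A further Nasp spot, on arrays 2, 4 and 5, gave 2.03, 1.47 and -0.60, closest to the tested one on array 4.

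Uhrf1, which recruits the maintenance methyltransferase to newly copied DNA, had 0.91, 0.17, 0.75, 1.08 and -0.19 on arrays 1 to 5. It was highest on array 4, and its range was narrow beside that of Chaf1b. Relative to the median of all genes Uhrf1 was above on all 5 arrays, though on array 5 only narrowly, at -0.194 against -0.216. Being above on every array held for 3 of the 18 members measured on all 5, against 7.20% of all genes. The others were Rpa2, at 0.006 against -0.006 on array 2, and Lig1, at -0.156 against -0.216 on array 5. Only a single Lig1 spot was measured on array 5. Hells, a chromatin remodeller of DNA methylation, was measured on array 1 alone, at 5.74. Chaf1a, Slbp and Dnmt1 had no spot with their name alone.

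Single-strand binding, ligation and repair genes, 5 tested of 7, held both the member positive on every array and the one with the mean nearest 0. Rpa2, the middle subunit of the protein that coats single-stranded DNA, had its highest values on arrays 3 and 1, at 2.95 and 2.10. It had 1.34 on array 5, 1.09 on array 4 and 0.01 on array 2. Its mean was 1.497 ± 1.11 (SD, n = 5; limma adjusted p = 0.412), and the exact sign-flip permutation test (two-sided) gave p = 0.0625, the smallest that 5 arrays allow. Rpa2 was the only member gene positive on every array, 1 of the 18 measured on all 5, against 3.14% of all genes. Its sign on array 2, at 0.006 after centring, is too close to 0 to be relied on. By spot it was 2 of 20, with 1 Cdc45 spot, against 4.01%. Rpa1, the large subunit of the same complex, had 0.35, 0.21, -0.30, -0.26 and -0.22 on arrays 1 to 5. On array 3, where Rpa2 was at percentile 97.2, Rpa1 was at 46.6. The mean of Rpa1 was -0.05 ± 0.30 (SD, n = 5; limma adjusted p = 0.926), and it became 0.12 when arrays were centred on the spots measured on all 5. Rpa3, the small subunit, had no spot.

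Lig1, the ligase that joins Okazaki fragments, was tested by a pair of spots that shared their sign on all 4 arrays measured by both. One gave 1.60, 0.62, 2.71, 0.93 and -0.16 on arrays 1 to 5 and the other 1.33, 1.73, 2.09 and 0.30 on arrays 1 to 4. Averaged over spots, Lig1 had a mean of 1.10 ± 0.95 (SD, n = 5; limma adjusted p = 0.412). On array 2, where the median member was level with all genes, both spots were positive and their average was 1.17. Fen1, the flap endonuclease that trims Okazaki fragments, had 0.95, -0.29, 1.16, 0.17 and -0.32. Msh6, which recognises mismatches left by the polymerase, had 0.56, 0.52, 1.35, 0.19 and -0.57. Both were highest on array 3 and lowest on array 5, with limma adjusted p-values of 0.604 and 0.535. Ung, which removes uracil from DNA, and the cyclin Ccne2 had no spot.

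**Figure D4:**
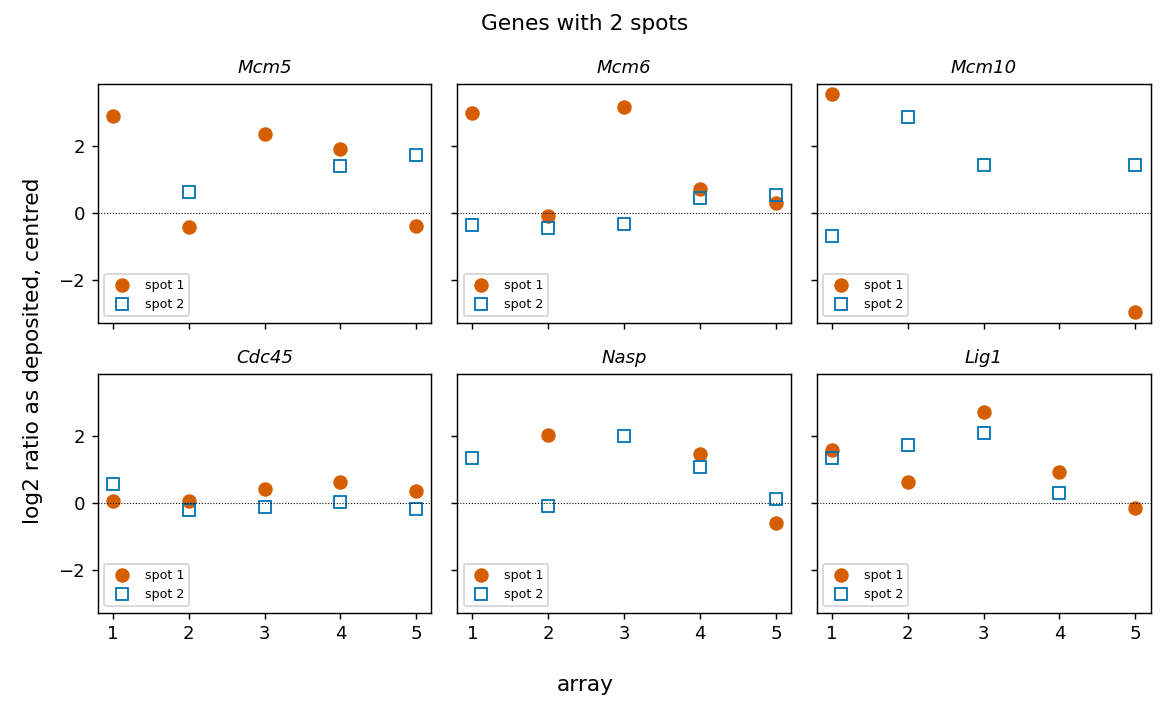
Centred log2 ratio as deposited (y axis) on each array (x axis) for the 6 member genes with 2 spots. Filled circles and open squares are the spots of a gene, with no mark where a spot had no usable ratio. The spots of Lig1 and Cdc45 differ least, by up to 1.11 and 0.61, though the Cdc45 spots share their sign on only 2 of 5 arrays. Those of Mcm6 differ by up to 3.48 and those of Mcm10 by up to 4.40.

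Agreement between spots of a gene varied widely. The largest gap on a shared array was 0.61 for Cdc45, 1.11 for Lig1, 2.12 for Nasp, 2.14 for Mcm5, 3.48 for Mcm6 and 4.40 for Mcm10. The second Mcm5 spot, on arrays 2, 4 and 5, gave 0.64, 1.40 and 1.74, against -0.41, 1.91 and -0.40 for the tested spot. Which spot detects the named gene was not tested. Cells without a usable ratio were also uneven. Of the 34 member spots, 8, 6, 7, 5 and 3 were empty on arrays 1 to 5, or 23.5%, 17.6%, 20.6%, 14.7% and 8.82%. Among all 7722 spots with a single gene name the shares were 16.4%, 18.0%, 13.6%, 16.7% and 14.4%. The 18 members measured on all 5 arrays alone had medians minus all genes of 1.65, -0.07, 1.81, 0.54 and 0.01, near those of all 22.

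Within the set, genes that were high on array 1 tended to be high on arrays 3 and 4. Members are not independent of each other. Across the 18 of them measured on all 5 arrays, Pearson's r was 0.57 between arrays 1 and 3, 0.64 between arrays 1 and 4 and 0.43 between arrays 3 and 4. The same correlations over 3791 genes were 0.39, 0.12 and 0.07. Array 2 correlated with array 1 at -0.29 over the members and at -0.06 over all genes. With array 4 it correlated at -0.14 over the members but at 0.35 over all genes. Array 5 correlated with array 1 at 0.03 over the members. The points of an array share its labelling and scan.

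Other genes of DNA replication, from a list of 80, gave a weaker form of the same pattern. Of these, 24 were measured, and their median stood 1.27, -0.02, 1.31, 0.39 and -0.10 from all genes across arrays 1 to 5. Means were positive for 17 and negative for 7, with a median of 0.44. At an unadjusted limma p under 0.05 there were 3 positive and 0 negative genes of the 24, against 3.76% and 8.00% of all genes, and 0 passed after adjustment (smallest adjusted p = 0.412). The 3 were Mcmbp, an MCM-binding protein, Top2a, the topoisomerase that untangles copied chromosomes, and Gins1, a subunit of the active helicase. Mcmbp had 0.95, 1.22, 1.92 and 0.61 on arrays 1 to 4. Top2a had 3.999, -0.81, 5.32 and 1.88 on arrays 1, 2, 3 and 5, beyond the helicase ring genes on arrays 1 and 3. Gins1 had 1.84, 0.22, 2.21, 1.71 and -0.48 on arrays 1 to 5, which resembles Mcm5.

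Of these 24 other replication genes, some of them measured on only 4 arrays, 1 was positive and 2 were negative on every array. Among all genes measured on all 5 arrays the shares were 3.14% and 12.1%, so these small counts were near those of all genes. The positive one, Rbbp4, a histone-binding subunit of CAF-1, had 0.89, 0.14, 0.83, 0.43 and 0.13. Top1, the topoisomerase that relieves supercoils ahead of the fork, was negative, with -1.03, -0.03, -1.66, -0.43 and -0.17. Averaged over its 2 spots, Ddb1, an adaptor of the ubiquitin ligase that destroys Cdt1, had -0.65, -0.31, -0.94, -0.07 and -0.31. One spot had -1.115, -0.235, -0.90, 0.11 and -0.34. The other had -0.18, -0.38, -0.98, -0.26 and -0.28, with its highest value on array 1. Top1, and Ddb1 by its average only, thus lay lowest on arrays 1 and 3, where the MCM ring genes lay highest. The median of all genes was also lowest on these arrays, at -0.35 on both. The lower quartile of all genes was -0.93 on array 1 and -0.945 on array 3. Top1 lay below it on both arrays, and the Ddb1 average lay above it on both. Both act in all cells, outside S phase as well.

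Rod photoreceptor genes lay on the opposite side on the arrays where the replication genes were high. Over 21 measured of 30 listed rod genes, the median stood -2.42, -0.02, -2.80, -0.48 and 0.31 from all genes across arrays 1 to 5. On array 1, 20 of 21 replication members lay above the median of all genes, against 1 of 21 rod genes, and on array 3 it was 22 of 22 members, against 5 of 19 rod genes. Nrl, the factor that specifies rods, had -3.92 on array 3 and -3.45 on array 1 by its spot on all 5 arrays, and stayed within 0.28 of 0 there on the other 3. A further Nrl spot, empty on arrays 1 and 3, gave 0.35, 0.11 and 2.41 on arrays 2, 4 and 5, well above the first on array 5. Gnat1, the rod transducin alpha subunit, did not share that split by its spot on all 5 arrays. That spot had -3.28 on array 1, -2.65 on array 4, -1.21 on array 2, -0.77 on array 3 and 0.12 on array 5. Another tested Gnat1 spot gave -0.105, -2.11, -1.37 and -0.66 on arrays 1 to 4. An untested one gave 0.79, 0.25 and -0.58 on arrays 2, 4 and 5, so the Gnat1 spots disagreed. Muller glia genes, 7 measured of 13, gave 0.24, -0.19, 0.31, 0.15 and 0.16. Retinal progenitor genes, 9 of 16, gave 0.03, 0.04, 0.72, 0.14 and -0.19, a positive shift on array 3 without one on array 1. For microglia and blood 1 gene of 13 was measured, at 0.79, -0.51, 0.81, 0.20 and -0.33, also highest on arrays 1 and 3. For pigment epithelium, lens and vessels 6 of 19 gave -0.63, 0.31, -0.17, -0.36 and 0.53. The part of any of these cell types in the replication result was not tested.

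**Figure D5:**
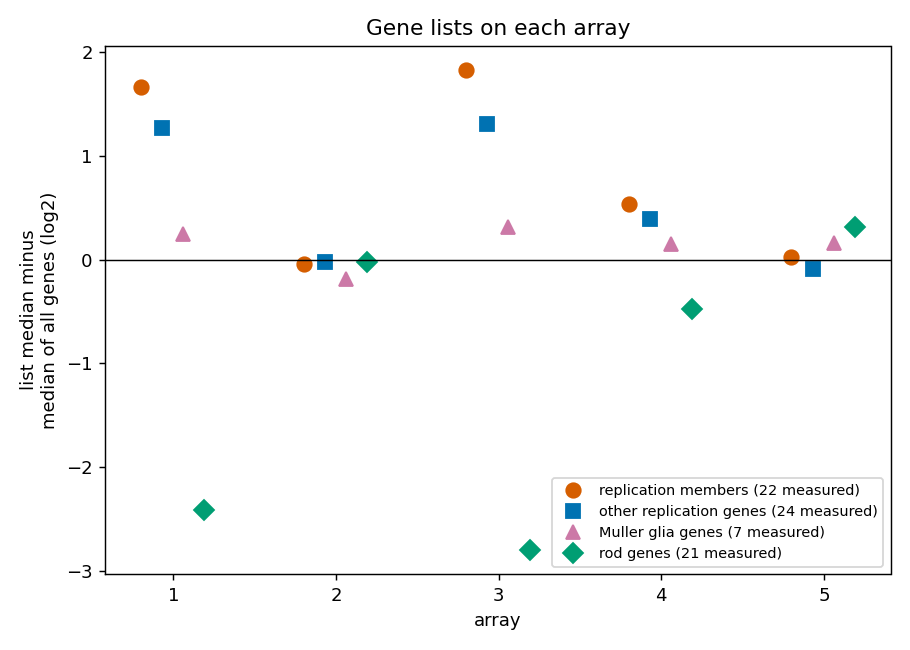
Median of each gene list minus the median of all 4625 genes (y axis, log2, as deposited) on each array (x axis), for the replication members, the other replication genes, Muller glia genes and rod genes. Replication genes are high and rod genes low on arrays 1 and 3, and all 4 lists lie within 0.32 of 0 on arrays 2 and 5.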

How the data were processed

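Members and gene lists were chosen with earlier results of these data known. The values are log2 ratios deposited by the authors for 5 dual-colour arrays. Per the labels, GenePix Pro 4.1.1.29 formed ratios as 635 over 532 nm after subtracting local background, and nothing was normalized. The sources used here do not say why cells are empty. The value 16.61, the log2 of 100000, was treated as missing, and no member spot held it. Each array was centred on its median, and 192 ACTB control spots were left out.

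Symbols came from the platform annotation, updated through gene identifiers (RefSeq, GRCm38.p6, matching 7663 of 7722 single-symbol spots). Another 353 spots had several symbols, among them 1 of Chaf1a, and were not named. Spots measured on at least 4 arrays were fitted with limma 3.58.1 (R 4.3.3), intercept only, against 0, with Benjamini-Hochberg adjustment over all 10036 spots. A gene's value was the mean of its tested spots, for 4625 genes, fitted in the same way. P-values of genes are from the gene fit. For single genes, the signs of the arrays were also permuted exactly (two-sided). The fit was tested on simulated data with 200 of 10036 spots changed, at an adjusted p under 0.05. With the spread of these spots it recovered 0% of log2 changes of 1, 48% of changes of 2 and 73.5% of changes of 4. With the spread cut to 0.1 of that it recovered 98% of changes of 1. An adjusted p above 0.05 therefore does not show that a gene is unchanged. Ratios hold no depth, and the number of arrays limits the precision. All members are named, with all their spots. Of the other replication genes, those of one sign on all 5 arrays or with an unadjusted p under 0.05 are named. Alternatives tried were other centring, scaling and quantile normalization, the filler kept, other minimum array numbers, array weights, no moderation, a single spot per gene, each array left out, and each focus position alone.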

Additional observations from a re-analysis of the deposited data

How the results depend on the processing

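Under all 18 alternatives 0 member genes passed the adjusted threshold, and likewise 0 member spots under the 17 that test spots, the smallest adjusted p of a member gene being 0.177. The offset of the members from all genes stayed positive under every alternative that gives one, from 0.22 without arrays 1 and 3 (added after the data were seen) to 1.11 at focus position 10. Leaving out single arrays gave 0.57 to 1.00, and scaling the arrays to a common spread gave 0.68. Leave-one-array-out fits required 3 of the 4 remaining arrays, so up to 30 member spots entered.

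Counts at an unadjusted p under 0.05, 5 genes and 6 spots, depended on the setting. All called means were positive, and each count is set against the share of all genes or spots called positive in the same fit. For genes the count was 9 of 22 with centring on spots measured on all 5 arrays (6.79%), 1 of 22 without centring (0.995%, with 24.8% negative), 1 of 23 at focus position 0 (2.45%), 2 of 22 without moderation (3.14%) and 1 of 26 without arrays 1 and 3 (3.86%). Leaving out single arrays gave 3 to 9 genes (2.95% to 3.92%). For spots it was 1 of 25 without centring (2.69%), 3 of 25 at focus position 10 (5.97%), 1 of 27 at focus position 0 (4.14%) and 2 of 31 without arrays 1 and 3 (4.71%), and 2 to 7 with single arrays left out (5.11% to 6.85%).

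Of 389 gene means under the alternatives, 369 kept their sign. The other 20 belonged to 11 genes. Without centring, which leaves the arrays' negative medians in place, Gmnn was -0.015, Cdc45 -0.30, Pola2 -0.16, Fen1 -0.12 and Msh6 -0.050. Rpa1 turned positive at 0.12 with centring on complete spots, 0.016 without array 3, 0.006 without array 4 and 0.083 at focus position 10, and with single arrays left out Pola2 ran from -0.0021 to 0.53. At focus position 0 Pola2 was -0.21, Rrm2 -0.033, Fen1 -0.074 and Msh6 -0.19. Mcm6 was -0.026 with its second spot alone. Without arrays 1 and 3 Mcm7 was -0.14, Pola2 -0.25, Rrm1 -0.12, Chaf1b -0.33 and Fen1 -0.15. Centring on complete spots raised the median spot mean by 0.17 log2. None of these means was past the threshold. Each ratio already pairs both RNAs of an array, so the fit against 0 uses that pairing. No further pairing was possible because the arrays form a single group.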
